A study of Mus musculus with 2 samples.

Results

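Among the barcodes called as cells in the scATAC-seq libraries of the mouse brain, some carried many DNA fragments but placed very few of them in peaks. These low-fraction barcodes were selected on 1 measured value, the number of fragments in peaks divided by the number of fragments passing filters, which had to be below 0.12 in a barcode called as a cell. The rule found 2922 of 15719 called barcodes, of which 89 of 6979 were in the sham library and 2833 of 8740 in the stroke library. They were compared with the called barcodes of the same library above 0.20, named high-fraction barcodes here, of which there were 6817 in sham and 5054 in stroke.

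Both libraries came from wild-type (WT) C57BL/6J male mice, each library pooling 4 brains taken 48 h after surgery. In the stroke library, the middle cerebral artery had been occluded and then reperfused, and only the hemispheres on the side of the occlusion were used. In the sham library, the animals had the filament inserted without a lasting occlusion, and brains were used. Nuclei of flash-frozen tissue were freed mechanically and passed through a debris removal step. Each condition was 1 library of 1 pool, so surgery, the portion of brain taken and the library cannot be told apart, no test between the conditions was possible, and the intervals below are exact 95% intervals that cover counting error only.

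In this assay the transposase Tn5 cuts DNA and inserts adapters where chromatin lets it in. In an intact nucleus it enters mostly at promoters and enhancers, which are depleted of nucleosomes, while compacted gene-poor DNA is cut rarely. Fragments shorter than the DNA wrapped around a nucleosome come mainly from open stretches, and longer ones span a nucleosome. A barcode's fraction of fragments in peaks is a common quality measure of this assay, and the filter stated in the study's methods has the same value as the lower bound of the high-fraction class here. The study gives more stroke nuclei after filtering than the deposited table has called barcodes of any fraction, so which barcodes it kept is not known here.

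The low-fraction barcodes were a large share of the stroke library, given here as a description since the rule used this value. Of the stroke barcodes, 32.4% (31.4 to 33.4%) were low-fraction, 9.76% lay between the limits and 57.8% were high-fraction. In sham 1.28% (1.03 to 1.57%) were low-fraction and 97.7% high-fraction. The fullest interval of the stroke histogram, from 0.06 to 0.08, held 1445 barcodes and was followed by 738, 413, 251, 214, 209 and 178 in the next intervals of the same width, before the number rose again to 453 between 0.32 and 0.34. In sham the same interval held 14 barcodes, and no more than 38 lay in any interval under 0.12. The limit itself fell on a continuous slope, with 853 stroke barcodes between 0.12 and 0.20. The highest fraction inside it was 0.11996 in stroke and 0.11999 in sham, and the lowest outside it 0.12 and 0.12007. Between 0.11 and 0.12 lay 180 barcodes in stroke and 15 in sham. Of the called barcode sequences, 66 occurred in both libraries, 14 of them low-fraction in stroke and 2 low-fraction in sham, and none was low-fraction in both. Without the shared sequences the stroke share was 32.5%.

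**Figure D1:**
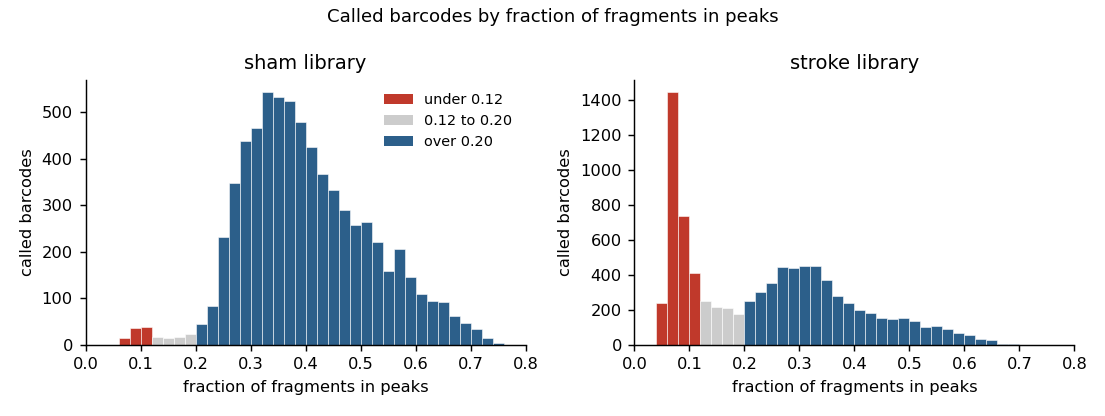
Number of called barcodes (y axis, with a different range for each library) by the fraction of fragments in peaks (x axis, intervals of 0.02), in sham (left) and stroke (right), coloured by class. The fullest interval of stroke is 0.06 to 0.08, with 1445 barcodes, where sham has 14.

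In depth the low-fraction barcodes of stroke were close to the high-fraction ones. Their median was 8998 fragments passing filters (quartiles 5132 and 13655, range 374 to 50997), against 9898 (5204 and 14751) in the high-fraction barcodes. Together they held 27621339 fragments. The 89 low-fraction barcodes of sham were shallower, with a median of 5803 fragments (1742 and 10210) against 10356 (5381 and 15468), and held 734155 fragments. For comparison, the stroke library also had 512 barcodes with at least 1000 fragments that the authors' cell caller had set aside under exclusion code 2, against 6 in sham. The meaning of the codes was not given in the sources used here. These barcodes were not called as cells and so were not chosen by the rule. Only 5.25% of their fragments lay in peaks, and whether the caller set them aside for that is not known here. Their promoter and peak coverage may therefore restate how they were set aside. Their median depth was 9407 fragments.

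Mitochondrial read pairs were more frequent and duplicates less frequent in low-fraction barcodes of both libraries. Mitochondrial DNA carries no nucleosomes and is cut readily where mitochondria remain with the nuclei. In stroke it took 0.537% of all read pairs of the low-fraction barcodes and 0.289% of those of the high-fraction barcodes. The median per barcode was 0.438% (quartiles 0.238 and 0.800%) against 0.180% (0.0772 and 0.371%). In sham the pooled shares were 1.27% and 0.434%, so both classes were higher there than in stroke. Duplicates, which are repeat reads of the same fragment, were 11.7% of read pairs in the low-fraction and 13.9% in the high-fraction barcodes of stroke, and 13.5% and 17.9% in sham. The base of these shares includes pairs of low mapping quality, 13.8% against 5.82% in stroke, which lowers the low-fraction share more. How much of the gap this makes was not tested. Called barcodes between 0.12 and 0.20 had 0.599% mitochondrial pairs in stroke and 1.34% in sham. Their duplicates were 11.4% and 13.2%, so neither trait was particular to the low-fraction barcodes. The shares of mitochondrial and duplicate pairs in the set-aside barcodes of stroke, at 0.418% and 12.5%, lay between those of the low- and high-fraction classes.

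In percentage points, the widest gap among the pairs that were filtered out was in reads that could not be placed uniquely. Pairs of low mapping quality made up 13.8% of the read pairs in low-fraction barcodes of stroke (median 12.7% per barcode, quartiles 11 and 15.4%) and 5.82% in high-fraction barcodes (median 4.96%, quartiles 4.22 and 6.74%). The quartile ranges did not overlap. In sham the shares were 16.2% and 4.88%, and the set-aside barcodes of stroke had 14.9%. Such pairs come from repeats and other copied sequence. Chimeric pairs, whose ends map to different places, went the other way, with 0.0740% against 0.198% in stroke and 0.0894% against 0.223% in sham. Unmapped pairs were also rarer, at 0.351% against 0.984% in stroke and 0.403% against 1.03% in sham.

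Fragment lengths set the low-fraction barcodes of the 2 libraries apart from each other. In stroke the low-fraction fragments were longer, with a median of 113 bp against 91 bp, and 64.8% of them were shorter than the DNA wrapped around a nucleosome, against 69.8% of the high-fraction fragments. The nucleosome signal, the number of fragments spanning 1 nucleosome divided by the number of shorter ones, was 0.510 in low-fraction and 0.378 in high-fraction barcodes of stroke. In sham the low-fraction fragments were shorter, with a median of 82 bp against 89 bp, 76.5% against 70.4% below nucleosome length and a nucleosome signal of 0.266 against 0.359. The longest fragments were scarcer in low-fraction barcodes of both libraries. Fragments at least as long as the DNA of 2 nucleosomes were 2.16% against 3.85% in stroke and 3.10% against 4.25% in sham. The set-aside barcodes of stroke had a median of 107 bp and a nucleosome signal of 0.432. In called barcodes between 0.12 and 0.20 the signal was 0.531 in stroke and 0.336 in sham. The direction in each library was thus not particular to the low-fraction barcodes.

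**Figure D2:**
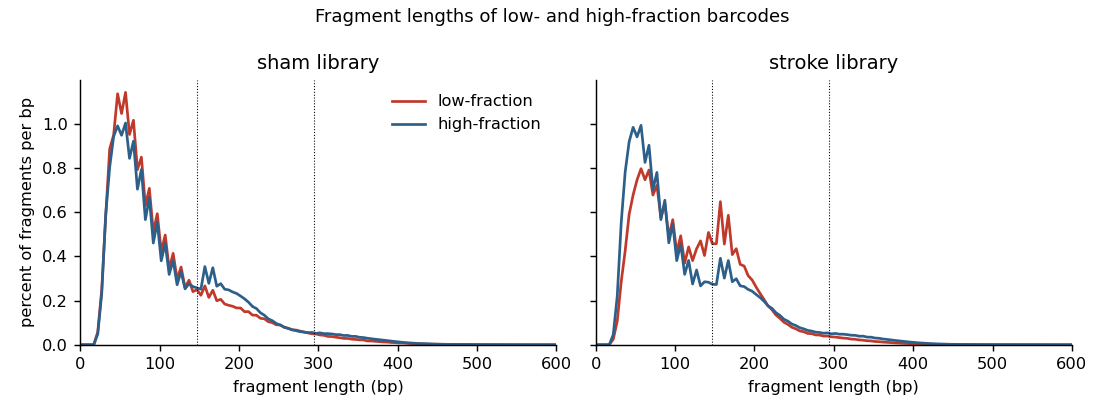
Percent of fragments per bp (y axis) by fragment length in bp (x axis), pooled over low-fraction (red) and high-fraction (blue) barcodes in sham (left) and stroke (right). Dotted lines mark the length of DNA wrapped around 1 and 2 nucleosomes. In stroke 33.1% of low-fraction fragments lie between the lines against 26.4% of high-fraction fragments, and in sham 20.4% against 25.3%.

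Fragment lengths also differed with the kind of region. Over promoters the nucleosome signal of stroke was 0.274 in low-fraction and 0.245 in high-fraction barcodes, over gene bodies 0.491 against 0.392, and over gene deserts 0.600 against 0.546. Fragments were shortest at promoters and longest in deserts in both classes of both libraries. How much of the pooled difference goes with the larger share of low-fraction fragments outside promoters was not tested. In sham the low-fraction barcodes had the lower signal in each kind of region, with 0.197 against 0.251 over promoters, 0.260 against 0.380 over gene bodies and 0.302 against 0.471 over deserts.

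Single low-fraction barcodes of stroke differed widely in this signal. Their median was 0.461 with quartiles of 0.295 and 0.662, against 0.353 with quartiles of 0.319 and 0.398 in high-fraction barcodes, and 5% of them lay below 0.115 and 5% above 1.04. A signal between 0.2 and 0.5 was found in 42.4% of low-fraction and 92.5% of high-fraction barcodes. Above 0.5 were 1271 low-fraction barcodes (44.9%), and below 0.2 were 361 (12.7%). In sham, 35 of the 89 low-fraction barcodes were below 0.2 and 3 above 0.5. When the stroke members were ordered by nucleosome signal and divided into 5 equal parts, the median depth was 5021 fragments in the part with the lowest signal and 11272 in the part with the highest. The median share of low-quality pairs was 15.3% in the former and 11% in the latter, and that of mitochondrial pairs 0.541% and 0.354%. The median share of fragments in peaks was 7.59% and 7.83%.

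Coverage of low-fraction barcodes of stroke was more level between kinds of region than that of high-fraction ones. Autosomes were divided into promoters (within 1 kb of the start of a protein-coding gene, 1.63% of the sequence), gene bodies (beyond 2 kb of any start, 38.1%) and gene deserts (at least 100 kb from any gene, 6.08%). Of the low-fraction fragments of stroke, 2.80% lay in promoters, 39.6% in gene bodies and 5.84% in deserts. Of the high-fraction fragments, 14.6%, 45.0% and 2.09% did. Per bp, promoters were covered 1.78 times as densely as deserts (interval 1.78 to 1.79) in low-fraction and 26 times in high-fraction barcodes of stroke, and gene bodies 1.08 times against 3.43 times. In sham the promoter values were 2.65 (2.62 to 2.69) against 36.1, and the gene body values 1.41 against 4.49. Promoters and peaks overlap, so the promoter values describe the choice of members and are no separate finding. The set-aside barcodes of stroke had 0.932 for promoters and 0.868 for gene bodies, with denser coverage of deserts than of genes.

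The same coverage was seen barcode by barcode. The share of fragments in promoters had a median of 2.60% (quartiles 2.12 and 3.29%) in low-fraction barcodes of stroke and 14.1% (11.7 and 18.2%) in high-fraction ones. For deserts the medians were 5.62% (5.10 and 6.18%) and 1.85% (1.5 and 2.38%), so deserts, which hold few peaks, took about as large a share of the low-fraction fragments as they take of the sequence. Gene body shares were closer, with medians of 38.2% and 43.4%. In sham the low-fraction medians were 3.16% in promoters and 4.61% in deserts.

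Promoter coverage rose with each interval of the peak fraction. Promoters and peaks overlap, so this rise describes how the intervals were cut and is no separate finding. In stroke the promoter over desert density was 1.11 in the 237 barcodes below 0.06, then 1.45, 2.18 and 3.02 in the other 3 intervals of low-fraction barcodes, 4.66 and 7.65 between the limits, and 17.0, 28.5 and 41.8 above 0.20. Gene body density over desert density was 0.938, 1.03, 1.15 and 1.26 in the low-fraction intervals and reached 3.94 between 0.30 and 0.40. In the sham barcodes of 0.06 to 0.08 the promoter value was 1.35 over 14 barcodes. The nucleosome signal in stroke was 0.470, 0.497, 0.526 and 0.564 within the low-fraction class, 0.558 and 0.503 between the limits and 0.398 from 0.20 to 0.30, so it was highest near the limit and not at the lowest fractions.

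**Figure D3:**
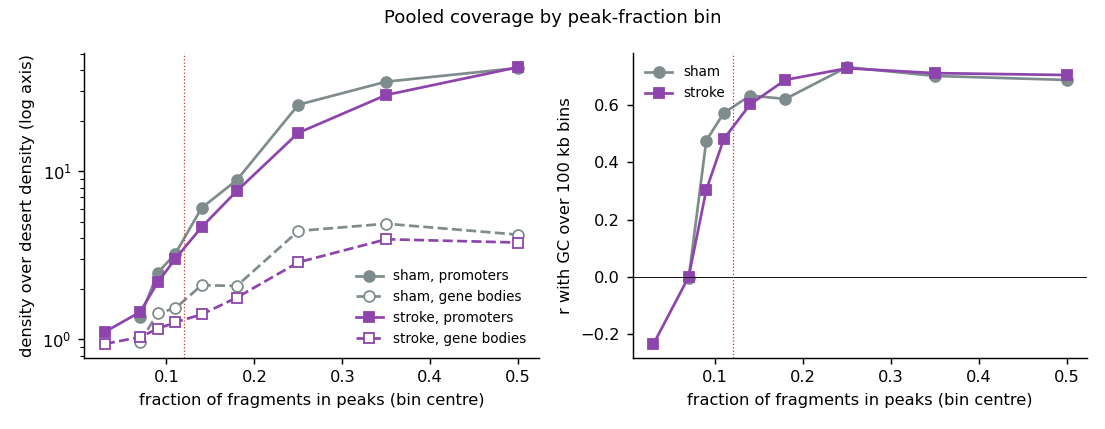
Pooled fragments of called barcodes by interval of the peak fraction (x axis, centre of each interval, with 0.4 and over drawn at 0.5), in sham and stroke. Left, density in promoters and gene bodies over that in deserts on a log axis; right, Pearson's r of coverage with GC content over 100 kb bins; the dotted line marks 0.12. The lowest values lie in the lowest interval of each library, with promoters at 1.11 and r at -0.23 below 0.06 in stroke.

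The base composition of the low-fraction fragments of stroke was near that of the genome. Low-fraction fragments of stroke were 42.5% G or C, high-fraction fragments 48.7%, and the autosomes 41.9%. In sham the values were 45.1% and 49.3%. The difference was present within each kind of region, with 50.3% against 61.2% in promoters, 43.2% against 47.3% in gene bodies and 39.1% against 41.5% in deserts of stroke. In 100 kb bins of the autosomes (23863 bins), the coefficient of variation of coverage was 0.221 in low-fraction and 0.905 in high-fraction barcodes of stroke. The correlation of coverage with GC content over these bins, which share their libraries and depth, was r = 0.15 and r = 0.72, and it was r = -0.42 in the set-aside barcodes. In sham the low-fraction coverage followed GC content nearly as closely as the high-fraction coverage did, with r = 0.62 and r = 0.70, and its coefficient of variation was 0.439 at a mean of 29.7 fragments per bin. With the coverage of high-fraction barcodes of stroke, the low-fraction coverage correlated at r = 0.39 in stroke and r = 0.62 in sham. Sequence marked as repeats in the reference held 26.1% of low-fraction and 17.2% of high-fraction fragment midpoints in stroke and 36.4% of the genome, although fragments that map to several places were already removed.

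Chromosome X was also covered closer to its share. Males carry a single X chromosome, against a pair of each autosome. The X to autosome ratio of fragments per bp was 0.446 (0.445 to 0.447) in low-fraction, 0.280 in high-fraction and 0.510 in set-aside barcodes of stroke. In sham it was 0.393 (0.387 to 0.398) in low-fraction and 0.255 in high-fraction barcodes. In deserts alone the stroke values moved to 0.459 and 0.394, so the gap between the classes was smaller away from genes.

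Cut sites were denser at gene starts than around them in low-fraction barcodes too, and the part of free fragments or of sequence preference in this was not tested. TSS enrichment, the density of cut sites within 500 bp of the starts of protein-coding genes over that at 1900 to 2000 bp, was 1.89 in low-fraction and 8.01 in high-fraction barcodes of stroke, 2.01 and 8.66 in sham, and 1.23 in the set-aside barcodes of stroke. Gene starts and peaks overlap, so the lower height at starts in low-fraction barcodes describes the choice of members. A few over-covered loci raised the low-fraction values. The 66 bins of 1 kb with more than 20 times the median count held 130994 fragments, or 0.475% of the low-fraction fragments of stroke, and without them its TSS enrichment was 1.74. The shape of the profile differed as well as its height. In high-fraction barcodes of stroke, fragments below nucleosome length rose to 26.2 times their level near 2 kb just upstream of the start, and those spanning 1 nucleosome peaked at 12.3 times just downstream, where the first nucleosome of a gene lies. In low-fraction barcodes the short fragments rose to 2.94 times, while the longer ones stayed between 0.839, at 225 bp downstream, and 1.21, at 325 bp upstream, with no peak just downstream of the start. In sham, whose low-fraction pool is small, the longer fragments reached 2.1 times just downstream.

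**Figure D4:**
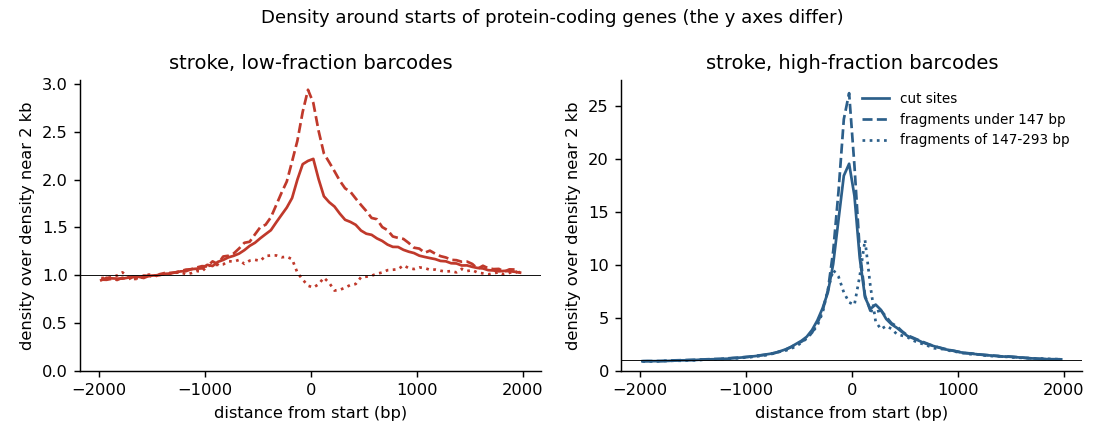
Density around starts of protein-coding genes in stroke, relative to that near 2 kb (y axis), by distance from the start in bp (x axis), for cut sites and for midpoints of short and nucleosome-length fragments, without the over-covered bins. The y axes differ: short fragments reach 2.94 in low-fraction (left) and 26.2 in high-fraction barcodes (right).

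For single genes and gene lists, the fragments within 1 kb of the start were divided by the number expected from flanks at 5 to 25 kb on both sides. This local promoter enrichment is 1 where a promoter is covered like its surroundings. Genes were first grouped by a measure that the stroke members did not enter, their local enrichment in sham high-fraction barcodes. From the group of genes with the lowest to that with the highest value, of 10 groups of nearly equal size, local enrichment in low-fraction barcodes of stroke was 0.868, 0.990, 1.08, 1.20, 1.41, 1.65, 1.91, 2.1, 2.34 and 2.76. The promoters that were most open in sham nuclei thus had the highest values, in the same order. In high-fraction barcodes of stroke the same groups ran from 0.402 to 30.5, and in the set-aside barcodes from 0.931 to 1.23. The low-fraction barcodes of sham ran from 0.884 to 3.26.

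Promoters rich in CpG, typical of genes used in every cell, had the higher enrichment. The 9738 promoters with over 50% GC and an observed over expected CpG ratio over 0.6 had a local enrichment of 2.07 (2.07 to 2.08) in low-fraction barcodes of stroke, against 1.26 (1.26 to 1.26) at the 12195 others. In high-fraction barcodes the values were 8.90 and 2.63, and in set-aside barcodes 1.11 and 1.07. The 250 bases before the start of Jun, an immediate early gene whose protein is part of AP-1, and of P2ry13, a purinergic receptor gene of microglia, are shown as examples of a promoter in the CpG-rich group and one outside it, picked after their values were seen, with each CG in capitals. They are from RefSeq on GRCm38.p6, Jun from the minus strand of chr4:95052223-95052472 and P2ry13 from the minus strand of chr3:59210883-59211132.
Jun: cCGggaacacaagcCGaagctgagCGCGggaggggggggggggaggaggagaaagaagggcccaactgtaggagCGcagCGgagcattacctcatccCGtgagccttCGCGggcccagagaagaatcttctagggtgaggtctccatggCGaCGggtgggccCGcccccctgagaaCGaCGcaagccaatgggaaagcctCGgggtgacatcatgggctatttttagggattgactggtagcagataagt
P2ry13: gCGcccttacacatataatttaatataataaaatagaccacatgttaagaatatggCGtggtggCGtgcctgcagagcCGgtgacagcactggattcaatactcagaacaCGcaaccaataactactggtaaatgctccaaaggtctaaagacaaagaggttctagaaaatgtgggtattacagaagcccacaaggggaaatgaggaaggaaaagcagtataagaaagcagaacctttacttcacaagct
The Jun window holds 15 CG dinucleotides and that of P2ry13 holds 5, where the median over 32851 RefSeq promoter windows was 6. At Jun, 92 low-fraction fragments of stroke gave a local enrichment of 3.09 (2.49 to 3.78), against 66.2 from 2057 fragments in high-fraction barcodes. At P2ry13, 48 low-fraction fragments gave 1.52 (1.12 to 2.01), against 1.33 from 86 in high-fraction barcodes.

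Genes used by all cells had more promoter signal in low-fraction barcodes than the marker lists of most cell types. The housekeeping list (12 genes) had a local enrichment of 2.24 (2.07 to 2.42) in low-fraction barcodes of stroke against 7.63 in high-fraction ones. The 79 ribosomal protein genes had 2.17 (2.1 to 2.23) against 7.01, with Rpl7 at 3.87 from 113 fragments and Rps12 at 3.96 from 112. Immediate early genes, which neurons induce on activity, had 2.03 against 5.23, p53 targets 1.83 against 5.35, targets of NF-kB 1.69 against 4.26, heat shock genes 1.60 against 6.64 and replication-dependent histone genes 1.58 against 3.84. In the set-aside barcodes the 7 lists lay between 0.875 and 1.31.

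Of the cell types, the pan-neuronal list stood above the others in low-fraction barcodes, with 2.01 (1.83 to 2.2) against 7.22 in high-fraction barcodes of stroke. In the low-fraction pool this was near the 2.07 of CpG-rich promoters as a whole, and the median over all genes tested was 1.53, above the values of the other cell type lists. Its members with the most low-fraction fragments were Nefm, a neurofilament gene, at 2.56 from 67 fragments, Map2, a microtubule-associated protein gene, at 2.40 from 64, and Elavl3, an RNA-binding protein gene, at 1.82 from 53. Glutamatergic neuron markers followed at 1.39 (1.24 to 1.57), and astrocyte, microglia and GABAergic neuron markers at 1.24, 1.23 and 1.23, with intervals above 1 but values below that median. These intervals overlapped each other. The intervals of the macrophage (1.04), oligodendrocyte (1.10), pan-leukocyte (1.10), granulocyte (1.09), lymphocyte (1.12), OPC (1.13) and mural and leptomeningeal (0.962) lists included 1. Endothelial markers were at 1.18 (1.04 to 1.33) and ependymal and choroid plexus markers at 1.19 (1.04 to 1.36). Over the 20682 single genes tested, 77.7% were lower in low-fraction than in high-fraction barcodes of stroke, as the choice of members implies. Of the 14 cell type lists, 12 were lower in the same comparison, so this count is no trait of the marker lists. The exceptions were the granulocyte and lymphocyte lists, where the high-fraction values were 0.879 and 0.410. Against barcodes over 0.30 the pan-leukocyte list turned as well, with a ratio of 1.009, which left 11 lists lower. No list marked the low-fraction barcodes as a cell type, and none is given to them here. The granulocyte and lymphocyte lists lay below 1 in high-fraction barcodes, and the low-fraction pool was also lower at housekeeping promoters. The lack of a marked list therefore cannot tell which cell types the members came from.

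**Figure D5:**
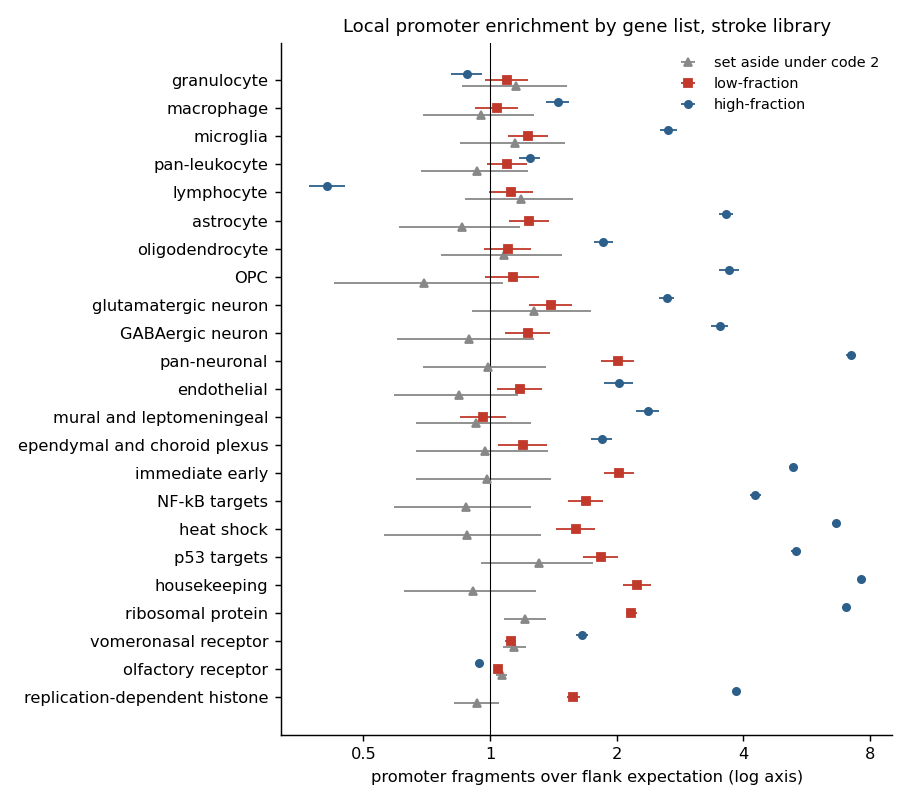
Local promoter enrichment (x axis, log scale) of the 23 gene lists in low-fraction (red squares), high-fraction (blue circles) and set-aside (grey triangles) barcodes of stroke, with exact Poisson 95% intervals. Low-fraction values lie between 0.962 and 2.24, and high-fraction values between 0.410 and 7.63.

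Counts of marker fragments were close to a Poisson spread over the low-fraction barcodes of stroke. For the microglia list, 303 of the 2833 low-fraction barcodes of stroke (10.7%) had a promoter fragment, and the variance over barcodes was 1.15 times that of a Poisson spread at their depths, against 1.52 times in high-fraction barcodes. For endothelial markers the values were 1.05 against 1.99, for OPC markers 1.03 against 1.94 and for astrocyte markers 1.15 against 1.76. The gap was smaller for granulocyte (1.19 against 1.34) and lymphocyte markers (1.11 against 1.18) and absent for glutamatergic neuron markers (1.16 against 1.14). The highest low-fraction values were 1.28 for oligodendrocyte and 1.27 for pan-leukocyte markers. The lists with few fragments can show little spread in any case, and their levels differed between the classes.

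Gene by gene, most promoters were less enriched in low-fraction than in high-fraction barcodes of stroke. Of 20682 protein-coding genes with at least 5 expected fragments in both pools, 13683 (66.2%) were at least 1.5 times lower and 2441 (11.8%) at least 1.5 times higher in the low-fraction pool, and the median local enrichment was 1.53 against 3.96. With at least 20 expected fragments, 1313 genes were higher and 9460 lower. These shares describe the choice of members and there is no replicate behind them. The rule used the ratio without its interval, so counting error at few fragments can also carry genes past 1.5. Of the 142 members of the 14 cell type lists, 76 were lower (53.5%) and 21 higher (14.8%) by the same rule. Of the 12 lymphocyte markers, 9 were higher and none lower, among them Cd4, the T helper cell co-receptor, at 1.14 against 0.271, and Nkg7, a gene of cytotoxic granules, at 2.24 against 0.628. Of the 79 ribosomal protein genes, 72 were lower and 3 higher, and of 1031 olfactory receptor genes tested, 331 were higher and 190 lower.

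Genes counted as higher were mainly ones whose promoters lay below their surroundings in the high-fraction barcodes. Among the 2441, the median local enrichment was 1.08 in low-fraction and 0.488 in high-fraction barcodes, and 2387 (97.8%) were below 1 in the latter. The 15 genes with the largest ratio had values of 0.644 to 2.15 in the low-fraction and 0.0755 to 0.265 in the high-fraction pool, and 6 of them were olfactory and 1 a vomeronasal receptor gene, families that made up 1031 and 179 of the 20682 genes tested. These genes passed the minimum of 20 fragments through the low-fraction pool and were then picked by ratio, so their values are a description of that choice. Dnah12, an axonemal dynein gene (mm10 chromosome 14, 26693274 at its start), had 20 low-fraction fragments and a value of 1.36 against 4 fragments and 0.0937, a ratio of 14.6 (4.88 to 58.6). Xcr1, a chemokine receptor gene of dendritic cells, had 1.37 against 0.133, a ratio of 10.4 (4.74 to 24.4). Jchain, which joins immunoglobulin chains in plasma cells, had 1.44 against 0.133, and Amy1, an amylase gene, 0.878 against 0.0755.

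At the other end, 7 promoters with values of 73.8 to 164 in high-fraction barcodes had 2.11 to 3.34 in low-fraction ones. Zbtb20, which encodes a zinc finger repressor, had 164 from 2641 high-fraction fragments and 2.76 (2.11 to 3.56) from 60 low-fraction fragments, a ratio of 0.0169. Xpo1, the main nuclear export receptor gene, had 90.1 against 2.52. Cdca2 and Kctd9 share a promoter region, with 116 and 116 against 3.18 and 3.34, as do Cenpq and Mut, with 75.1 and 73.8 against 2.11 and 2.11, and Arrdc4 had 83.7 against 2.37. The 3 overlapping starts of Ermard, Tcte3 and Gm3448, copies of which may share reads, had 0 low-fraction fragments against 8.0 to 8.15 expected. They were below their surroundings in high-fraction barcodes too, with 20 fragments and values of 0.645 to 0.676. All genes named in this paragraph passed the minimum of 20 fragments through the high-fraction pool and were then picked by their small ratio. Ermard, Tcte3 and Gm3448 lay exactly at that minimum. The values of all these genes are therefore a description of that choice.

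Most loci reported here that mark brain and immune cells in the study were close to their surroundings in low-fraction barcodes of stroke. Gad2, a GABA synthesis gene, was at 1.29 (24 fragments) against 6.75 in high-fraction barcodes, and Cldn5, a tight junction gene of endothelium, at 1.20 against 3.14. Pdgfra, the receptor gene of oligodendrocyte precursors, was at 0.869 against 2.07 and Gfap, the astrocyte intermediate filament gene, at 1.06 against 1.80. For P2ry12, the microglial ADP receptor gene, the values were 1.80 against 1.98, for Sv2b, a synaptic vesicle gene, 1.87 against 2.48, and for S100a8, a granulocyte alarmin gene, 0.853 against 0.933. Mog, a myelin gene, was at 0.775 against 0.879, Csf1r, the macrophage growth factor receptor gene, at 0.631 against 0.743 and Gad1 at 1.04 against 0.734. The intervals of the last 6 ratios included 1. At S100a8, Mog, Csf1r and Gad1 the high-fraction values were themselves below 1, so these windows say little about likeness of the classes. Each gene had 1 start, the outer end of its annotated record, and other starts were not counted.

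Along whole genes the same levelling was seen. Density over gene bodies with 2 kb upstream, relative to the autosomal mean of the pool, was 1.56 for ribosomal protein genes in low-fraction barcodes of stroke against 8.11 in high-fraction ones, 1.73 against 9.28 for histone genes and 1.22 against 5.54 for the housekeeping list. The families that are silent in brain moved the other way. Olfactory receptor genes were at 0.774 (0.769 to 0.780) against 0.242, and vomeronasal receptor genes, a family with many similar copies, at 0.597 against 0.149. Macrophage markers were at 0.954 against 0.524, pan-leukocyte markers at 1.10 against 0.820 and microglia markers at 1.22 against 2.40. The values of the 14 cell type lists thus spanned 0.954 to 1.27 in low-fraction barcodes, where the high-fraction values spanned 0.524 to 2.53.

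Few open regions were called in the pooled low-fraction fragments, as the choice of members by their share in peaks implies. At 26767351 autosomal fragments in each pool, 3467 bins of 200 bp passed a Poisson limit of 1e-05 and 2 times the mean of the surrounding 10 kb in low-fraction barcodes of stroke, against 158914 in high-fraction barcodes. The low-fraction number was 1931 with a limit of 0.10 (23138380 fragments per pool), 7140 with 0.15 (29802692) and 990 between the depth quartiles (12492359), so the depth of the pools changed with these settings. Of the low-fraction regions, 43.4% lay within 1 kb of a start, against 20.6% of the high-fraction regions. This order turned at lower depth. At 713600 fragments the shares near a start were 19.4% against 73.9% in stroke and 17.9% against 70.2% in sham, and at 4827666 fragments they were 17.7% against 39.7% in stroke. The high-fraction calls covered 65.8% of the low-fraction regions, directly or in a neighbouring bin, and the low-fraction calls covered 2.94% of the high-fraction regions. At 713600 fragments, the size of the sham low-fraction pool, the low-fraction barcodes gave 84 regions in sham and 72 in stroke, the high-fraction barcodes 6250 and 4984, and the set-aside barcodes of stroke 35.

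Regions called in sham high-fraction barcodes gave a set of sites that the stroke members did not enter. At the 40229 such regions within 1 kb of a start, low-fraction barcodes of stroke had 3.23 times the coverage of the flanks, against 18.6 times in high-fraction and 1.67 times in set-aside barcodes. At the 240903 regions farther from starts, which include enhancers, the values were 1.64, 6.34 and 1.18. The low-fraction barcodes of sham had 3.52 near starts and 1.53 farther away. These regions overlap the peaks whose share chose the members, so the order of the classes is a description of that choice.

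Of the 3467 regions called in the stroke low-fraction pool, 1029 had no call nearby in the high-fraction pool of either library at full depth. How many of these 1029 regions passed the Poisson limit through counting error is not given here. They were spread over 741 windows of 1 Mb, the fullest of which, 15 to 16 Mb on mm10 chromosome 5, held 27. On average 27.4% of their sequence was marked as repeats, against 36.4% of the genome and 26.1% of all low-fraction fragment midpoints of stroke. In the pools that were not used to choose them, their coverage over that of the flanks was 2.55 in set-aside barcodes of stroke and 2.17 in low-fraction barcodes of sham. The high-fraction values of 1.25 in stroke and 1.04 in sham follow from the choice of regions without a call there. Mapping of repeats and sequence preference of the transposase were not tested as sources of these regions.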

How the data were processed

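Single-nucleus ATAC-seq was deposited for 1 sham and 1 stroke library, with fragment lists and tables of counts per barcode that the authors made with Cell Ranger ATAC 2.1.0 on mm10, per the labels and the study's methods. The deposited counts are whole numbers of read pairs and fragments per barcode, and the fragment lists give positions after removal of duplicates. The sham list held 76959104 fragments and the stroke list 96465679. Barcodes were grouped as low-fraction (under 0.12), high-fraction (over 0.20) or set aside under code 2 with at least 1000 fragments. Fragments were counted by midpoint in regions built from GENCODE M21, with Python 3.11.15, numpy 2.4.6, pandas 2.3.3 and scipy 1.17.1, and drawn with matplotlib 3.10.9. Coverage over 100 kb bins left out 5 bins above 5 times the median. Intervals are exact at 95% (Poisson, or Clopper-Pearson for shares). A gene was counted as higher or lower past a ratio of 1.5 with at least 5 expected fragments in both pools, with no p-value. Named genes were the 15 with the largest and 10 with the smallest ratio among those with at least 20 promoter fragments in the pool where they were higher, the study's marker loci and the leading members of each list. The counting was tested on simulated data. Other limits, comparison classes, windows, flanks and filters were tried. Members, lists and tests were chosen with earlier results of these data known. The mid class (0.12 to 0.20) is shown only for comparison. 1 of the marker loci is not reported here. No doublet caller was run here, and called barcodes were used as deposited.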

Additional observations from a re-analysis of the deposited data

Results flagged for a closer look

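The stroke library held 512 barcodes with at least 1000 fragments that the cell caller had set aside under code 2, a class outside the called barcodes, where the sham library held 6. Their promoter density over desert density was 0.932, so promoters were covered less densely than deserts. Only 5.25% of their fragments lay in peaks, and this density may restate how they were set aside, which is not known here. The nucleosome signal of low-fraction over high-fraction barcodes was 1.35 in the stroke library and 0.741 in the sham library, on opposite sides of 1. Called barcodes between 0.12 and 0.20 went the same ways, with 0.531 against 0.378 in high-fraction barcodes of stroke and 0.336 against 0.359 in sham. With 1 library per condition this difference was not tested.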

How the results depend on the processing

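No paired analysis was possible because only 1 library stood for sham and 1 for stroke. Values are low-fraction over high-fraction in stroke unless stated, and no main comparison changed direction. With a limit of 0.10 the share was 27.7%, mitochondrial pairs 1.80, duplicates 0.840, nucleosome signal 1.33, fragments below nucleosome length 0.934, TSS enrichment 0.217, promoter density 0.0621, gene body density 0.308, chromosome X 1.61 and open regions 1.34% of the high-fraction number. With 0.15 they were 36.7%, 1.90 (mitochondrial), 1.36, 0.925, 0.262, 0.0771, 0.322, 1.57 and 4.20%, the same order without duplicates. Against barcodes over 0.30, mitochondrial pairs were 2.07, duplicates 0.796, then 1.39, 0.921, 0.205, 0.0535, 0.278, 1.66 and 1.82%. Between the depth quartiles of the low-fraction barcodes, depth was 0.954, mitochondrial pairs 2.41, duplicates 0.790, then 1.40, 0.921, 0.221, 0.0555, 0.278, 1.68 and 0.969%. Without the top 1% by depth, they were 1.90, 0.839, 1.36, 0.927, 0.234, 0.0671, 0.310, 1.60 and 2.1%. Over all barcodes with at least 1000 fragments the share was 36.6%. Starts of all genes gave a TSS enrichment of 0.291. Without the over-covered 1 kb bins, an alternative chosen after seeing the data, TSS enrichment was 0.217, promoter density 0.0635 and chromosome X 1.59. Promoter density was 0.0509 with a 500 bp window, 0.0767 with deserts 50 kb and 0.0515 with deserts 500 kb from genes, where gene bodies gave 0.352 and 0.237. In deserts only, chromosome X was 1.16. At 20 or more expected fragments, 1313 genes were higher, against 2441. At 4 times the local mean, open regions were 2.45%. The directions that turned were the pan-leukocyte list against barcodes over 0.30 (1.009) and, in sham, the oligodendrocyte list at 0.10 (0.994) and the pan-leukocyte list with a 500 bp window (1.08) or flanks of 10 to 50 kb (1.07). The causes were not tested. Depth limits the sham values, which rest on 89 barcodes and 734155 fragments.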
